A study of Mus musculus with 8 samples.

Results

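The genes described here are 9 extracellular matrix genes usually associated with stromal cells, Vcan, Fmod, Fbln2, Fbn2, Fn1, Postn, Tnc, Mmp2 and Timp3, followed in single basal cells of the mouse mammary gland. They are 9 of the 14883 genes in the table and were chosen because an earlier reading of the same table placed them in libraries rich in basal cells. They were thus chosen by measured values, those of the contrast between libraries 2 and 4 and libraries 1 and 3, and values of this contrast are given as a description without a test. The study dissected ducts and terminal end buds, the bulbs at which ducts lengthen, from the mammary gland of mice aged 5 weeks and of a strain given as mixed. The tissue was dissociated, live cells were sorted into wells, and each well was profiled by SORT-seq, which runs the CEL-seq2 protocol with robots and tags each molecule so that transcripts can be counted. The 8 libraries fall into 4 on plate 1 and 4 on plate 2, and the labels name no genotype or treatment that differs between them. Which libraries hold ducts and which hold end buds, and which animals they came from, is not given in the sources used here, so what separates libraries 2 and 4 from 1 and 3 rests on the markers below.

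The mammary epithelium has an inner luminal layer and an outer basal layer of contractile myoepithelial cells, which lie on a basement membrane and face the stroma. Interstitial matrix, made largely by fibroblasts, consists of collagen fibres, elastic fibres, proteoglycans and adhesive glycoproteins, and is remodelled by metalloproteinases and their inhibitors. Among the 9 genes, Vcan (versican, a large hyaluronan-binding proteoglycan) and Fmod (fibromodulin, a small proteoglycan on collagen fibrils) are proteoglycans. Fbln2 (fibulin 2) and Fbn2 (fibrillin 2) belong to elastic fibres and microfibrils. Fn1 (fibronectin), Postn (periostin) and Tnc (tenascin C) are adhesive or matricellular glycoproteins, Mmp2 is a gelatinase, and Timp3 is a matrix-bound inhibitor of metalloproteinases.

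A well counted as a cell when it held at least 1500 transcripts and at least 500 genes, spike-ins left out, which kept 114 of 768 wells. Near that limit, wells of 1477 and 1499 transcripts fell just outside it and wells of 1505 and 1664 just inside. Cells in which Col1a1, Col1a2, Col3a1 and Dcn, 4 fibroblast matrix genes, together exceeded Acta2, Tagln and Krt5, 3 basal genes, were set aside. This removed 9 cells and left 62 cells in libraries 2 and 4 with 1098233 transcripts, and 43 cells in libraries 1 and 3 with 556834. The 62 cells were 7 in plate 1 library 2, 6 in plate 1 library 4, 31 in plate 2 library 2 and 18 in plate 2 library 4, so plate 2 supplied most of them. Median depth was 14722.5 transcripts per cell in libraries 2 and 4 and 7783 in libraries 1 and 3. The summed level of 8 myoepithelial markers lay between 37.0 and 150 transcripts per 10000 in libraries 2 and 4, against 0.364 to 3.39 in libraries 1 and 3. Luminal markers ran the other way, at 4.32 to 14.2 against 99.7 to 136, with 8 of 9 lower in all 4 libraries and Cldn3 and Elf5 at 0. Plate 1 library 2 departs from the basal label, since 4 of its 7 cells held under 10 transcripts of Acta2, Tagln and Krt5, as did 1 of 6 in plate 1 library 4. Another cell of plate 1 library 2 held 49 luminal and 28 myoepithelial marker transcripts, with Tagln and Krt5 at 0. That cell supplied 29724 of the 57617 transcripts of the library. Well numbers are reused between libraries, and 37 of the 67 well numbers with a kept cell recur in 2 or more of them.

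The 9 genes lie on 8 chromosomes, so they are not a cluster of neighbours, and all are protein coding in the GENCODE annotation of the mm10 build. Vcan spans chr13:89655312-89742509 on the minus strand, Fmod chr1:134037254-134048277 on the plus strand and Postn chr3:54361109-54391037 on the plus strand. Fbln2 spans chr6:91212455-91272540 and Timp3 chr10:86300372-86349506 on the plus strand, as does Mmp2 at chr8:92827291-92853420. Fn1 spans chr1:71585520-71653200 and Tnc chr4:63959785-64047015 on the minus strand. The 250 bases before the start of these 3 genes are shown because Vcan belongs to 1 of the pairs that went together across cells, with Fbln2, and Postn and Fmod to another, as described below. They are RefSeq sequences on GRCm38.p6, the same coordinates as mm10, read 5′ to 3′ on the gene's own strand, in lower case with a TATAAA match in capitals. The windows are chr13:89742513-89742762 on the minus strand for Vcan, chr1:134037004-134037253 on the plus strand for Fmod and chr3:54360857-54361106 on the plus strand for Postn.
Vcan: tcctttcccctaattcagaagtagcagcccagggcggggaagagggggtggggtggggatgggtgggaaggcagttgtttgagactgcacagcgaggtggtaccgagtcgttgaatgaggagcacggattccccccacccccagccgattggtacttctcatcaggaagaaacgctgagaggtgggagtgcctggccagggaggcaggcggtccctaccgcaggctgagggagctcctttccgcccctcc
Fmod: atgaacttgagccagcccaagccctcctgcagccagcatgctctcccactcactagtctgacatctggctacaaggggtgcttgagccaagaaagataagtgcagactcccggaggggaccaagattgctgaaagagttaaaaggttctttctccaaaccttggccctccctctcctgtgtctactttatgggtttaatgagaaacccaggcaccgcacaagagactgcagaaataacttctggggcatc
Postn: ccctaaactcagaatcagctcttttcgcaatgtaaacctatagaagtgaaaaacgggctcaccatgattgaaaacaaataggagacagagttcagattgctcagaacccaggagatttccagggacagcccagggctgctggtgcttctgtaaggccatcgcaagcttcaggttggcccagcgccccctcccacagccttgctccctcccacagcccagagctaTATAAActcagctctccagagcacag

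The Postn window shown holds TATAAA beginning 26 bases before its RefSeq start, and the Vcan and Fmod windows hold none. A second RefSeq start of Postn, at position 54359267, has a window without TATAAA. The windows of both RefSeq starts of Tnc hold it, farther from the start. TATAAA on either strand is found in 12.4% of all 32851 windows of this length. TGANTCA, the AP-1 letters, occur in 6.75% of all windows, GGAATG, the TEAD letters, in 12.6% and the CArG box in 1.47%, and none of these was present in the 3 windows shown. The single match overlaps no other motif searched, and absence says only that these letters are not in the window. The GC content was 62.4% for Vcan, 51.2% for Fmod and 52% for Postn, against a median of 52.4% over all windows.

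Of the 9 genes, 8 were read in the cells of libraries 2 and 4, and the 9th, Tnc, was not. Library values below are transcripts per 10000 and follow the order plate 1 library 2, plate 1 library 4, plate 2 library 2, plate 2 library 4, then plate 1 library 1, plate 1 library 3, plate 2 library 1, plate 2 library 3. The proteoglycan Vcan stood at 3.12, 5.69, 6.87 and 5.34 in libraries 2 and 4 and at 0, 0.637, 0.174 and 0 in libraries 1 and 3. The groups do not overlap, and 667 transcripts against 11 give a ratio of 30.7 (95% interval 17.1 to 61.9, exact, counting error only). Transcripts of Vcan were present in 51 of 62 cells and in 3 of 43. In plate 1 library 2, 13 of the 18 Vcan transcripts came from the cell with 49 luminal marker transcripts. Fmod stood at 0, 1.86, 1.74 and 1.05, with 0 transcripts in all of libraries 1 and 3. The groups therefore meet at 0, and the 158 transcripts, against a floor of 3 over the 43 cells, make Fmod at least 26.7-fold higher. In plate 1 library 4, 19 Fmod transcripts came from 1 cell.

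Of the elastic fibre genes, Fbln2 was at 1.56, 5.89, 6.49 and 4.43 in libraries 2 and 4 and at 0.370, 0.0708, 0 and 0.104 in libraries 1 and 3. It did not overlap between the groups, with 606 transcripts against 7, a ratio of 43.9 (21.2 to 110), and was present in 51 of 62 cells. In plate 1 library 2, 6 of the 9 Fbln2 transcripts came from the cell with 49 luminal marker transcripts. Fbn2 was at 0, 1.77, 3.66 and 0.938, against 0, 0.0708, 0 and 0. Its level in plate 1 library 2 put it inside the range of libraries 1 and 3, and with 1 transcript there the ratio of 135 has an interval of 24 to 5347. A single cell held 86 of the 266 Fbn2 transcripts, 32.3%.

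Among the glycoproteins, Fn1 was at 0.174, 0.687, 0.801 and 0.398 against 0, 0.354, 0 and 0. The groups overlap, the ratio is 7.0 (2.86 to 22.2) on 69 and 5 transcripts, and 21 of 62 cells held a transcript. Postn was uneven between the plates, at 0.868, 0.0981, 2.88 and 5.23 against 0 in all 4 other libraries. Its 359 transcripts against the floor make it at least 60.7-fold higher, although plate 1 library 4 rests on a single transcript. Tnc goes against the description of the set. It had 0 transcripts in the 62 cells, which allows up to 0.0273 per 10000, and stood at 0, 0.496, 0 and 0.156 in libraries 1 and 3. Those 10 transcripts came from 4 cells, each with 62 or more luminal marker transcripts, and make Tnc at least 6.57-fold lower in libraries 2 and 4.

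Of the enzyme and the inhibitor, Mmp2 was at 1.04, 0.883, 1.69 and 2.30 against 0 in all 4 other libraries, at least 33.0-fold higher on 195 transcripts. Timp3 was at 7.98, 3.04, 3.51 and 3.89 against 0.185, 0, 0.261 and 0.364, a ratio of 17.7 (10.1 to 34.6) on 420 and 12 transcripts. It was present in the most cells, 55 of 62, against 4 of 43. The highest library for Timp3 is the one that departs from the basal label: 42 of its 46 transcripts came from the 4 cells with under 10 basal transcripts. In these 4 cells endothelial marker transcripts numbered 3, 9, 10 and 28 and adipocyte marker transcripts, nearly all of them Fabp4, 27, 79, 50 and 78. A further 8 of 31 Timp3 transcripts in plate 1 library 4 came from 1 such cell. With these 5 cells left out, as decided once their values were known, the mean Timp3 level over the 4 libraries went from 4.61 ± 2.28 (SD, n = 4) to 2.69, and the other 8 genes together lost 5 transcripts.

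**Figure D1:**
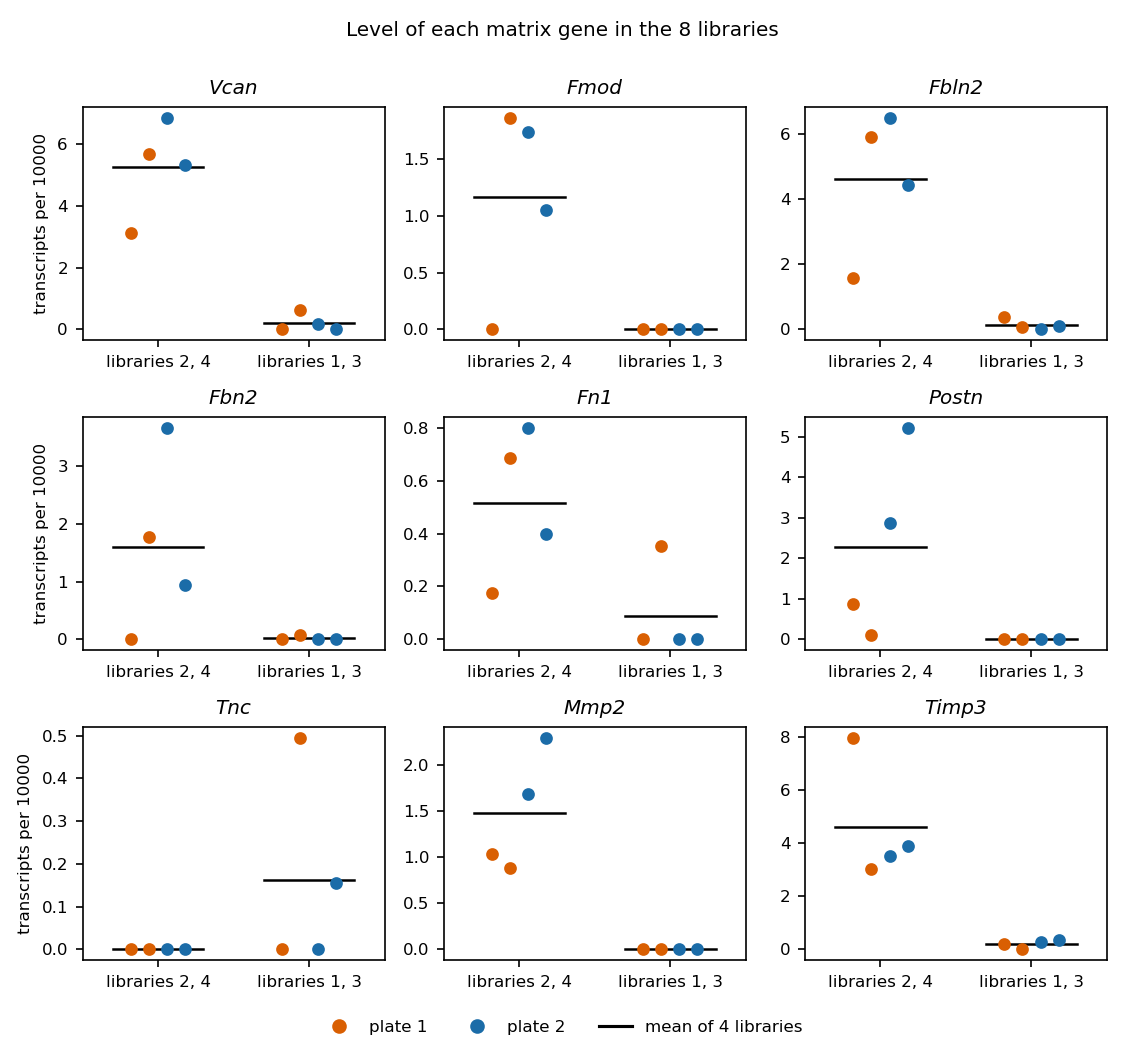
Level of each of the 9 genes in transcripts per 10000 (vertical axes, each gene on its own linear scale from 0) in libraries 2 and 4 and in libraries 1 and 3, with 1 point per library coloured by plate and a line at the mean of 4 libraries. Vcan, Fbln2, Postn, Mmp2 and Timp3 separate the groups, Fmod and Fbn2 touch 0 in plate 1 library 2, Fn1 overlaps, and Tnc is at 0 in libraries 2 and 4.

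In all, 5 of the 9 genes, Vcan, Fbln2, Postn, Mmp2 and Timp3, lay higher in all 4 libraries 2 and 4 than in all 4 others. The same was true of 7.31% of the 10647 genes with enough transcripts to count, and 6.07% lay lower in all 4. Since this contrast chose the genes, nothing is read from the count. The summed level of the 9 genes was 21.5 ± 5.48 per 10000 (SD, n = 4) in libraries 2 and 4 and 0.810 ± 0.551 in libraries 1 and 3. The median log2 ratio of the 9 genes, with those at 0 taken at their floor, was 4.94, and that of all 10647 genes was 0.02. Depth differed in the same direction, so shares of cells were also taken after thinning each cell to 1500 transcripts. Vcan was then present in 29 of 62 cells against 1 of 43, Timp3 in 28 against 2, Fbln2 in 22 against 0, Mmp2 in 16 against 0 and Postn in 15 against 0. Fmod, with 7 against 0, and Fbn2 and Fn1, each with 6 against 1, were near the level of a single transcript. In luminal-rich libraries 1 and 3, 13 of the 43 cells held any transcript of the 9 genes before thinning. These cells do not measure free RNA in libraries 2 and 4, whose left-out wells held the set at 19.8 per 10000. The part of free RNA in the levels of libraries 2 and 4 was not tested.

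One of those 13 cells, in plate 1 library 3, held 8 of the 11 Vcan transcripts, 4 of the 5 Fn1 transcripts and the single Fbn2 transcript of libraries 1 and 3. It also held 10 Acta2 and 314 red blood cell marker transcripts. The remaining cells with a transcript held between 1 and 6 of the 9 genes' transcripts each.

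Fibroblast transcripts were few in both groups of libraries. The summed level of the fibroblast markers was 0.511 to 1.39 per 10000 in libraries 2 and 4 and 0.142 to 2.44 in libraries 1 and 3, with 0 of the 4 markers that could be counted higher in all 4 and Dpt at 0. The markers behind these sums differed. Col1a1, Col1a2, Col3a1 and Dcn had 7, 15, 8 and 27 transcripts in libraries 2 and 4 and 0 in libraries 1 and 3, where a cell with 1 such transcript and no basal transcript was set aside by the rule. Col6a3 had 2 against 87, and Pdgfra 8 against 10. Of the 62 cells, 33 held no transcript of Col1a1, Col1a2, Col3a1 or Dcn, and 29 held between 1 and 5. Levels in cells without any were 6.58 per 10000 for Vcan, 6.59 for Fbln2, 3.18 for Fbn2, 2.58 for Postn, 1.86 for Mmp2 and 4.18 for Timp3. In cells with 1 or more they were 5.57, 4.45, 1.67, 3.96, 1.69 and 3.47 in the same order. Fmod went from 1.17 to 1.71 and Fn1 from 0.804 to 0.454. All 8 genes were thus read in cells with none of the 4 fibroblast transcripts, and with cells pooled, Fmod and Postn had the higher level in cells with some. As a mean of library levels, Vcan was at 5.26 over all cells and 4.27 over cells without any, so its direction depends on the pooling. Among pericyte markers, Notch3 had 8 transcripts in libraries 2 and 4 against 59 in libraries 1 and 3, while Pdgfrb had 5 against 0, Cspg4 6 against 0, Rgs5 3 against 1 and Kcnj8 0 against 1. All 5 endothelial markers were read in plate 1 library 2, with a summed level of 8.68. The adipocyte list rested on 1 gene, Fabp4, at 41.1 in plate 1 library 2 and 5.20 in plate 1 library 4, with Adipoq and Cfd at 2 transcripts each and Plin1 at 0. The part of these cells in the levels was not tested beyond the Timp3 values above.

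The 9 cells set aside held a different selection of the genes. None had a transcript of Vcan, Fmod, Fbn2 or Fn1, and they held 1 Fbln2, 4 Tnc, 7 Postn, 8 Mmp2 and 60 Timp3 transcripts. The cell with the most fibroblast transcripts, 91 of the 4 genes in a cell of plate 1 library 2, held 38 Timp3 and 1 Fbln2 transcripts. All 4 Tnc transcripts were in a cell of plate 1 library 3 with 62 luminal marker transcripts. In 2 of the 9 cells, which held 464 and 714 luminal marker transcripts, a single Dcn transcript met the rule because the 3 basal genes were at 0.

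**Figure D2:**
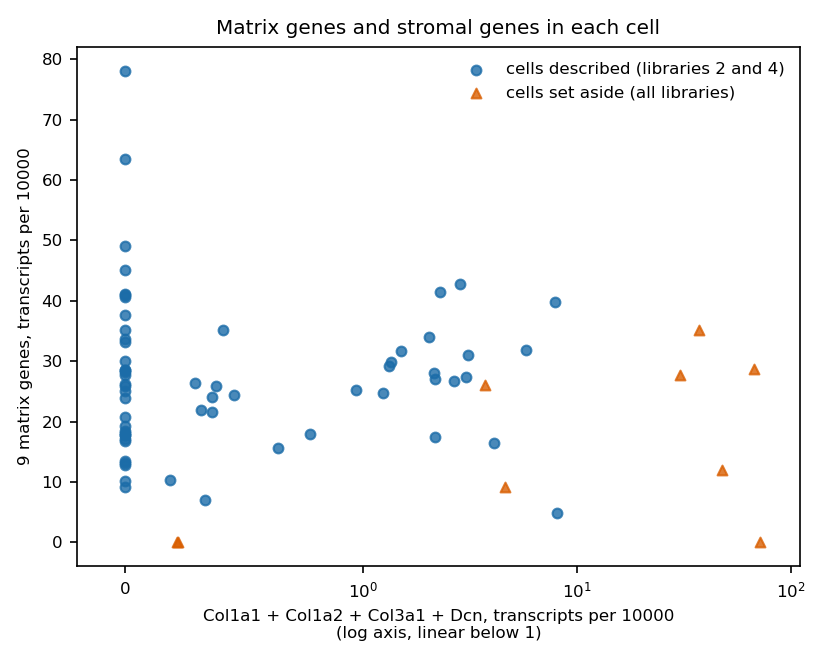
Summed level of the 9 genes in each cell (vertical axis, transcripts per 10000) against the summed level of Col1a1, Col1a2, Col3a1 and Dcn (horizontal axis, log scale, linear below 1), with circles for the 62 cells described and triangles for the 9 cells set aside, of which 2 overlap near the origin. Circles reach 78.1 per 10000 at 0 fibroblast transcripts, in a cell with 13 transcripts of the set among 1664.

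Every one of the 62 cells held at least 1 transcript of the set. The number of the 9 genes present ran from 1 to 8 per cell with a median of 6, and their summed level from 4.85 to 78.1 per 10000 with a median of 26.3. Individual genes spread widely. The median level over cells was 4.34 for Vcan, 4.21 for Fbln2 and 3.40 for Timp3, while it was 0.822 for Mmp2, 0.751 for Fbn2, 0.667 for Postn, 0.110 for Fmod and 0 for Fn1. The highest single cells reached 37.1 for Postn, 36.6 for Timp3, 36.1 for Fbln2 and 24.7 for Vcan. The Timp3 value rests on 9 transcripts in a cell of plate 1 library 2 with 1 Acta2 and 27 adipocyte marker transcripts. The Fbln2 value and the summed 78.1 come from a single cell of only 1664 transcripts, with 6 of Fbln2 and 13 of the set.

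Within these cells the set did not vary as a unit. Correlations are Spearman's rho of log2(transcripts per 10000 + 1) over the 62 cells, which share libraries and differ in depth, and are given as a description. Of 28 pairs among the 8 genes read, 4 pairs (14.3%) had rho of 0.3 or more and 3 pairs (10.7%) had rho of -0.3 or less. Over all pairs of 7685 genes present in at least 20% of cells, 7.29% and 0.427% did. Over all cells, a pair was described as going together or against each other only where pooled rho reached 0.3 or -0.3. Its sign also had to be the same after thinning and in both plate 2 libraries.

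Vcan and Fbln2, the proteoglycan and the fibulin, went together, at rho 0.58 over all cells, 0.29 thinned, 0.50 in plate 2 library 2 and 0.48 in plate 2 library 4. Both were present in 47 cells. Postn and Mmp2 formed the other pair, at 0.61 over all cells, 0.35 thinned, 0.73 in plate 2 library 2 and 0.40 in plate 2 library 4, with both present in 27 cells. Fmod went with Postn, at 0.47, 0.18, 0.62 and 0.20 in the same order. The inhibitor Timp3 ran against the first pair. Its rho was -0.48 with Vcan (thinned -0.33, in the plate 2 libraries -0.28 and -0.70) and -0.40 with Fbln2 (thinned -0.22, then -0.36 and -0.36). Over the 57 cells with 10 or more basal transcripts, a setting added after seeing the data, these were -0.40 and -0.29. In the 57 cells Timp3 had rho 0.45 with Postn, against 0.24 over all cells and -0.04 thinned. With Mmp2 it had rho 0.35 in the 57 cells, against 0.15 over all cells and 0.03 thinned. Fn1 ran against Mmp2, at -0.33 over all cells, -0.14 thinned, and -0.33 and -0.49 in the plate 2 libraries. Fbln2 and Fbn2 had rho 0.37 over all cells but 0.00 in plate 2 library 4, and so were not counted as going together.

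Contractile genes, which mark myoepithelial cells, were set beside the same pairs. Postn went with Acta2 (smooth muscle actin), at rho 0.74 over all cells and 0.84 and 0.74 in the plate 2 libraries, and with Tagln (transgelin) at 0.69. Mmp2 had rho 0.59 and Fmod 0.61 with Acta2 over all cells, and both were lower within the well ranges of plate 2 described below. Vcan had rho -0.20 with Acta2 over all cells and -0.44 and -0.64 in the plate 2 libraries, and -0.40 with the basal keratin Krt14. Fn1 had rho -0.27 with Acta2 over all cells and -0.39 and -0.56 in the plate 2 libraries. Fn1 and Fbn2 also went with the depth of the cell, at rho 0.52 and 0.45 with transcripts per cell. For Fn1 this was 0.30 in wells 1 to 24 and 0.21 in wells 25 to 96 of plate 2, and for Fbn2 -0.07 and 0.41. With the sum of the 4 fibroblast genes, rho over all cells ran from -0.33 for Fbln2 to 0.20 for Postn. In the plate 2 libraries it was -0.23 and -0.48 for Fbln2, and 0.23 and 0.34 for Postn.

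**Figure D3:**
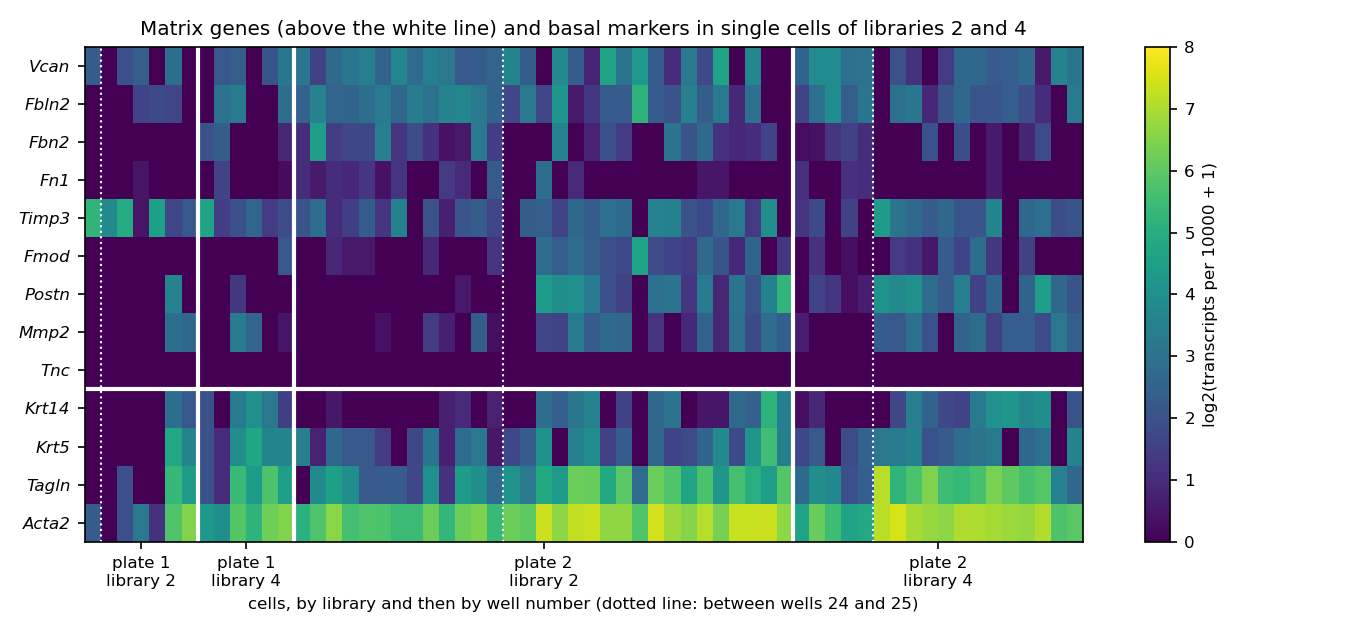
Level in each of the 62 cells of libraries 2 and 4, as log2(transcripts per 10000 + 1) by colour, with genes as rows and cells as columns ordered by library (white lines) and well number (a dotted line between wells 24 and 25). Postn, Mmp2 and Fmod are dark to the left of the dotted line in both plate 2 libraries and light to its right, where Acta2 and Tagln are also high, Vcan and Fbln2 are seen on both sides, and Tnc is dark throughout.

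The position of the well on plate 2 moved with this division, a split noticed after seeing the data and given without a test. Wells 1 to 24 held 13 cells in library 2 and 5 in library 4, and wells 25 to 96 held 18 and 13. Postn was at 0.0295 per 10000 in wells 1 to 24 and 6.77 in wells 25 to 96 of library 2, and at 0.635 and 8.95 in library 4. Mmp2 was at 0.325 and 3.55 in library 2 and 0.191 and 4.01 in library 4, and Fmod at 0.413 and 3.55, then 0.318 and 1.65. Fn1 was the reverse, at 1.18 and 0.282 in library 2 and 0.826 and 0.0514 in library 4. Timp3 was higher in wells 25 to 96 of both libraries, at 2.66 and 4.68, then 1.52 and 5.81. Fbln2 was lower there in both, at 7.55 and 5.04, then 4.95 and 4.01. Vcan differed in direction between the libraries, at 6.14 and 7.86 in library 2 but 8.0 and 3.19 in library 4. So did Fbn2, at 4.78 and 2.14, then 0.889 and 0.977.

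Basal markers and depth moved with the wells too. Acta2 was at 56.9 and 124 per 10000 in library 2 and 35.1 and 119 in library 4, Tagln at 9.94 and 44.0, then 6.92 and 55.5, and Krt14 at 0.266 and 4.4, then 0.254 and 8.44. Trp63, a basal transcription factor, was read on both sides, at 2.24 and 2.70, then 1.65 and 2.67. Median depth was 22009 transcripts per cell in wells 1 to 24 and 10121.5 in wells 25 to 96 of library 2, and 33737 and 14530 in library 4. Cell by cell, depth had rho 0.26 with Fmod, -0.06 with Postn and -0.11 with Mmp2 over the 62 cells. The highest luminal marker counts of single cells were in wells 1 to 24, 105 in library 2 and 247 in library 4. The same cells held 230 and 150 myoepithelial marker transcripts. Krt8, a luminal keratin, differed in direction between the libraries, at 1.74 and 2.38, then 2.99 and 2.42. What the well ranges held is not given in the sources used here and doublets were not called. Position, depth, kind of basal cell and admixture of luminal transcripts therefore cannot be told apart. On plate 1, where 12 of 13 cells lay in wells 25 to 96, Postn was at 0.907 per 10000 in those wells of library 2 and 0.0981 in library 4.

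Within the well ranges the correlations differed from those over all cells. Over the 18 cells of wells 1 to 24, rho was -0.07 for Vcan and Fbln2 and -0.42 for Postn and Mmp2, and 0 of 28 pairs reached 0.3. Over the 31 cells of wells 25 to 96, Vcan and Fbln2 had rho 0.63 and Postn and Mmp2 0.35, while Fmod and Postn had rho 0.01. In those wells Postn ran against Vcan at -0.65 and against Fbln2 at -0.48. Postn still had rho 0.58 with Acta2 there, against -0.04 in wells 1 to 24, where 5 cells held a Postn transcript. In wells 1 to 24 and then 25 to 96, rho with Acta2 was 0.04 and 0.27 for Mmp2 and 0.28 and 0.20 for Fmod. For Fn1 it changed sign, from -0.50 to 0.21, and for Vcan it was -0.13 and -0.56.

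**Figure D4:**
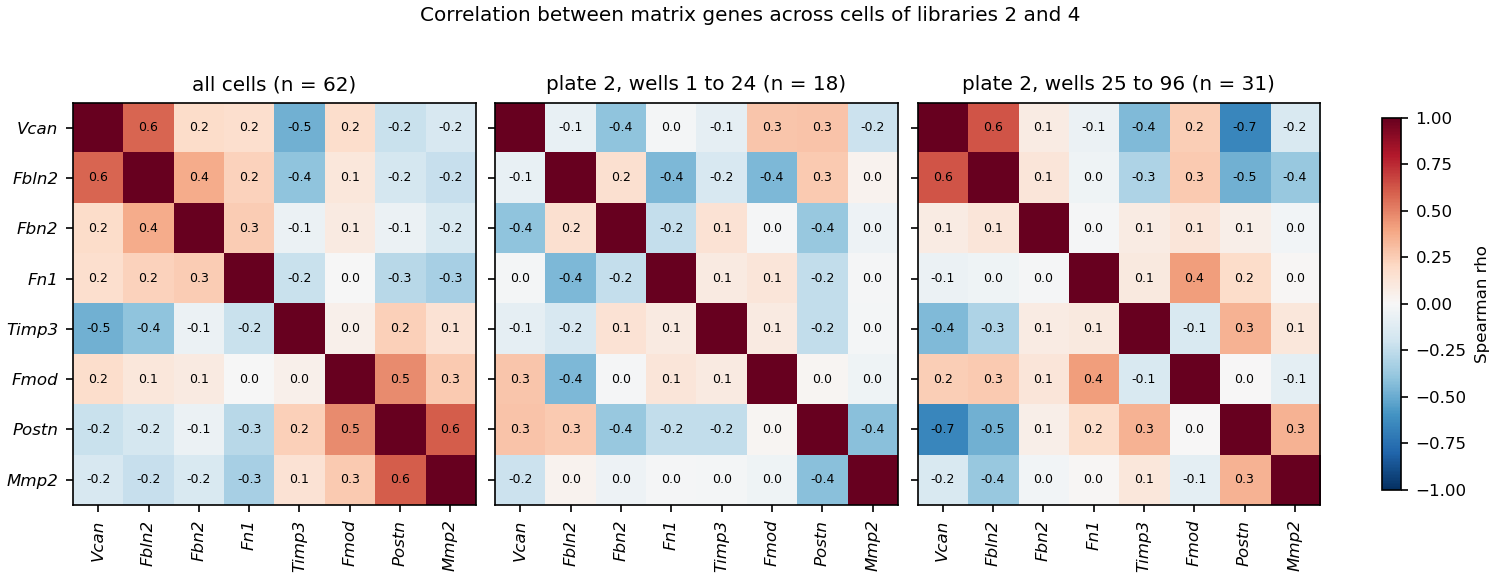
Spearman's rho between each pair of the 8 genes read in libraries 2 and 4, by colour and rounded value, over all 62 cells, over the 18 cells of wells 1 to 24 of plate 2 and over the 31 cells of wells 25 to 96. Vcan with Fbln2 (0.6) and Postn with Mmp2 (0.6) are positive over all cells, both are below 0 in wells 1 to 24, and Postn with Vcan is at -0.7 in wells 25 to 96.

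The genes whose levels were most like the sum of the 9 over the 62 cells, out of 7685 compared, are given as a description. Among the highest were Lamc1 (rho 0.50, a laminin chain), App (0.49), Fstl1 (0.49) and Col4a1 (0.49), a basement membrane collagen. Rbm38 (0.45), Mylk (0.44, myosin light chain kinase), Stat3 (0.44), Col7a1 (0.43, the anchoring fibril collagen) and Tpm1 (0.43, a tropomyosin) followed. The lowest were Hnrnpf (-0.55), B4galt1 (-0.54), Hmgb1 (-0.48), Psmb4 (-0.48) and Mff (-0.48). Each rho had the same sign in both plate 2 libraries.

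By single gene, Vcan and Fbln2 shared their closest gene, Ptn (pleiotrophin, a secreted growth factor), at rho 0.66 and 0.69. Vcan was followed by Ppp4r2 and Mfsd2a, and Fbln2 by Etv5 and Moxd1. Postn was closest to Mylk (0.77), Acta2 (0.74) and Synm (0.74, an intermediate filament protein). Mmp2 was closest to Igfbp3 (0.69) and Igfbp5 (0.68), which bind insulin-like growth factors, and to Plxdc2 (0.62). Fmod was closest to Lamc1 (0.71), Cyr61 (0.67) and Spon2 (0.66). Fbn2 was closest to Ckap4 (0.64), Mmp14 (0.58) and Rap2a (0.57). Fn1 was closest to Slc7a5 (0.68), Prkar2b (0.67) and Ndufa10 (0.66), and Timp3 to Egr1 (0.61), Cdh13 (0.59) and Tmsb4x (0.55). The share of the 7684 other genes with rho of 0.3 or more ran from 1.70% for Timp3 to 20.9% for Fn1, with Fbn2 at 14.0%. Over all pairs it was 7.29%, so the genes closest to Fn1 and Fbn2 are few among many. Over the 57 cells with 10 or more basal transcripts, Timp3 with Cdh13 was at 0.46 and with Tmsb4x at 0.43, while Timp3 with Egr1 stayed at 0.61.

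Between plates, no gene of libraries 2 and 4 passed the test, the 1 comparison that the choice of genes did not use. edgeR's quasi-likelihood test on transcripts summed per library, 2 libraries a plate, called 0 of 4709 genes (0%) at an adjusted p under 0.05. It gave 395 genes at an unadjusted p under 0.05, and DESeq2 called 18 genes, none of them among the 9. Postn had the largest difference of the set. From the 4 levels given above, its log2 change from plate 1 to plate 2 was 3.39 ± 0.73 (SE), with an adjusted p of 0.334 by edgeR. Mmp2 was at 1.10 ± 0.44 with an adjusted p of 0.585 by edgeR. Vcan (0.47 ± 0.38), Fbln2 (0.51 ± 0.53), Fbn2 (1.18 ± 0.92), Fmod (0.38 ± 0.77), Fn1 (0.37 ± 0.73) and Timp3 (-0.48 ± 0.46) all had an adjusted p of 0.770 or more by edgeR, and Tnc could not be tested.

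These calls depended on single libraries. Postn passed without plate 1 library 2 (log2 change 5.36, adjusted p 8.359e-05 by edgeR), without plate 1 library 4 (2.40, 1.128e-04) and without plate 2 library 2 (3.80, 0.001762), and did not without plate 2 library 4 (2.92, 0.1823). Without plate 1 library 4, Vcan (1.17, adjusted p 0.008787 by edgeR), Fbln2 (2.01, 3.833e-05) and Timp3 (-0.91, 0.02384) passed as well. Fbn2 and Fmod then passed too (adjusted p 4.469e-06 and 0.001071 by edgeR), against 0 transcripts of both in plate 1 library 2. That library alone then stands for plate 1 and is assumed to vary like the others. It is also the library in which 4 of 7 cells held under 10 basal transcripts.

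Other matrix genes were counted from lists by role, again without a test because the contrast chose the set. For each list the share of genes higher in all 4 libraries is to be read beside the 7.31% of all genes. Of the elastic fibre and fibulin genes, 4 of 9 counted lay higher, Fbln1, Fbn1, Ltbp4 and Mfap2, and 0 lower, with a median log2 ratio of 1.12. Eln, elastin, had 180 transcripts against 0 but none in plate 1 library 2, at least 30.4-fold higher. Fbn1, fibrillin 1, had 145 against 1, and Ltbp3 did not separate, at a ratio of 0.764 (0.570 to 1.03). Of the proteoglycan genes, 3 of 8 lay higher, Bgn, Hspg2 and Sdc1, and Sdc4 lay lower. Also taken from this list by level were Prelp (ratio 1.62, 1.26 to 2.10), Sdc1 (2.59, 1.81 to 3.79) and Has2, a hyaluronan synthase with 135 transcripts against 1.

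Among matricellular genes, 2 of 7 lay higher, Ctgf with 446 transcripts against 1 and Spon2 with 250 against 0. Cyr61, a secreted matricellular protein, was at 10.9, 15.3 and 17.6 per 10000 in 3 of the libraries and 0.521 in plate 1 library 2, and Thbs1, thrombospondin 1, had 565 transcripts against 27. Both overlapped between the groups. Thbs1 was at 0 and 0.589 in libraries 2 and 4 of plate 1, below the 2.08 of plate 2 library 1. Of the proteases and inhibitors, 4 of 10 lay higher, Adamts1, Adamts5, Adamts9 and Serpinh1, and Mmp15 lay lower. Serpinh1, a collagen chaperone, had a ratio of 4.26 (3.43 to 5.35), Adamts1 52.1 (17.6 to 254) and Timp2 2.00 (1.51 to 2.70). Timp2 overlapped, at 0.694 per 10000 in plate 1 library 2 against 1.48 in plate 1 library 1. Of 10 receptors counted, Itgb1 (1.99, 1.68 to 2.37) and Itgav (2.15, 1.59 to 2.97) lay higher, and Cd44, the hyaluronan receptor, overlapped at 1.56 (1.24 to 1.98). Of 8 interstitial collagen genes counted, 4 lay higher, Col5a2, Col7a1, Col14a1 (341 transcripts against 4) and Col16a1 (5.64, 4.19 to 7.75). Loxl2, a collagen cross-linking enzyme, overlapped at 1.12 (0.928 to 1.36).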

How the data were processed

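Single cells of the mouse mammary gland were profiled in 8 libraries of 96 wells. The submitters' processing notes name BWA 0.6.2-r126 and the build mm10 but give them no role. The deposited table holds expected counts, estimated transcript molecules per gene and well, which per the labels' protocols come from SORT-seq. Of 518737 values above 0, 518732 were whole within 1e-06 once a correction for shared tags in a pool of 256 was undone. Values were rounded to whole numbers with that correction kept, and 0 columns were left unmapped. Further filtering by the authors is not given in the sources used here.

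Members and lists were chosen with earlier results of these data known. Levels are transcripts per 10000 of the summed cells of a library. Ratios use all cells of a group with exact 95% intervals, which cover counting error only, and a floor of 3 transcripts. A list gene was counted when the 2 groups together held at least 10 transcripts. Intervals, floors and thinned shares do not cover the spread between libraries. Plates were compared with edgeR 4.0.16 in R 4.3.3 (TMM, quasi-likelihood, Benjamini-Hochberg over 4709 genes) and DESeq2 1.42.0 as an alternative. No source says that libraries are separate animals, so p-values measure only how much these libraries differ, possibly for technical reasons. On simulated counts for this comparison, over 4244 genes, 68.4% of 79 genes changed 4-fold and 100% of 74 changed 16-fold were recovered with 1 false call. The simulation gave every gene the same fixed dispersion, which was not estimated from these libraries. Its shares therefore do not give the recovery in the real libraries, which can be lower. Thinning and rho used Python 3.11.15, numpy 2.4.6 and scipy 1.17.1. Doublets were not called.

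Named genes followed a rule: all 9 members, the 10 highest and 5 lowest by rho with their sum, the 3 closest to each member, and up to 3 of each list by level, with list genes higher or lower in all 4 libraries also named, once their values were seen. One gene that this rule names is not reported here. Alternatives were other cell limits, other set-aside rules, leaving out each library, thinning, Pearson's r and within-library values.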

Additional observations from a re-analysis of the deposited data

Results flagged for a closer look

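Among libraries 1 and 3, plate 1 library 3 stood apart from the other 3 libraries by Dixon's criterion in 3 values. These were Fbn2 at 0.0708 transcripts per 10000, Fn1 at 0.354 and the sum of the 9 genes at 1.63. Most of these transcripts came from 1 cell, the one with 314 red blood cell marker transcripts. For Fbn2 and Fn1 the other 3 libraries were at 0, so any value above 0 would have stood apart, and Fbn2 rests on 1 transcript, below the floor of 0.212 for that library. Where the values are not fixed in this way, chance flags about 1 in 20 groups. The 3 values share that cell.

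Wells left out of the report because they held too few transcripts or genes also contained the 9 genes. In the 316 such wells of libraries 2 and 4, 136 of 68616 transcripts belonged to the set, 19.8 per 10000. In the 338 such wells of libraries 1 and 3, 45 of 90110 did, 4.99 per 10000. Both lie above what a count of 0 would allow, 0.437 and 0.333 per 10000, and the value in libraries 1 and 3 is above the 0.810 of their kept cells.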

How the results depend on the processing

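The count of 5 genes higher in all 4 libraries 2 and 4 was 3 (Vcan, Mmp2 and Timp3) with every cell holding a fibroblast transcript set aside, 8 within plate 2, and 5 to 8 with 1 library left out, the 8 without plate 1 library 2. Other cell limits and the 57 cells with 10 or more basal transcripts gave 5. The summed level of the set moved by less than 1 SD in each of these settings.

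Genes called between plates, 0 in the design used, numbered 18 with DESeq2, 107 without a filter on low counts, 33 with the library number as a replicate block, and 25 to 715 with 1 library left out. Same-numbered libraries deviated together at a correlation of only 0.00836 over 4709 genes, so the numbers were not treated as pairs. Among the 9 genes Postn passed with the replicate block (log2 change 3.34, adjusted p 1.685e-04 by edgeR) and without a filter (3.59, 2.88e-06), and the cause was not tested. With 1 library left out the log2 plate difference ran from -0.036 to 2.01 for Fbln2, -0.32 to 8.59 for Fmod, -0.071 to 2.03 for Fn1 and -0.91 to 0.34 for Timp3. It turned sign without plate 1 library 2 in each of these 4 genes, and the other ends came without plate 1 library 4, where the Fmod value is fitted against 0 transcripts and is no bound. With only cells of 10 or more basal transcripts Timp3 was at 1.06.

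Pairs with rho of 0.3 or more, 4 as reported, were 1 thinned, 8 in cells without a fibroblast transcript, and 4 to 5 with 1 library left out. In settings added after seeing the data they were 6 in cells with 10 or more basal transcripts, 0 in wells 1 to 24 and 4 in wells 25 to 96. They were 1 after centring by library and well range and 7 in cells of 10000 or more transcripts. Pairs with rho of -0.3 or less, 3 as reported, were 1 thinned, 5 in plate 2 library 2, 7 in plate 2 library 4, 7 after centring by library, and 2 to 7 with 1 library left out. In the added settings they were 6 in cells with 10 or more basal transcripts, 5 in wells 1 to 24 and 5 in wells 25 to 96. They were 2 after centring by library and well range and 10 in cells of 10000 or more transcripts. Signs turned for Vcan with Fbln2 (-0.073) and Postn with Mmp2 (-0.42) in wells 1 to 24, and for Fn1 with Mmp2 (0.011) in wells 25 to 96. Depth limits Fn1 and Fmod most, since 69 and 158 transcripts carry their values.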
